A study of Mus musculus with 26 samples.

Results

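The mitochondrial ribosomal protein genes were taken as every mouse gene whose symbol is Mrpl (large subunit) or Mrps (small subunit) followed by a number, pseudogenes left out. The rule gave 78 genes, 49 of the large and 29 of the small subunit. Of these, 71 (43 large, 28 small) had a probe set that listed no other gene symbol, among 22180 genes so measured, and all 71 were bright enough to be among the 14787 genes tested. Their mean log2 levels over all arrays had a median of 9.61, against 8.19 for all genes tested. The shares and medians of all genes given below were not matched for level. Where a gene had several probe sets of its own, the one with the highest mean over all arrays was used. This was so for 9 members, and changes of the other probe set are given below only for Mrpl47 and Mrps18b. The other 7 genes, Mrpl30, Mrpl33, Mrpl41, Mrpl43, Mrpl44, Mrpl53 and Mrps6, lay only on probe sets that list a second gene and were not tested.

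The mitochondrial ribosome is built in the matrix from proteins encoded in the nucleus and RNAs encoded in mitochondrial DNA, and it makes the membrane subunits of the respiratory chain and ATP synthase that the mitochondrial genome encodes. The messages of its proteins are made in the nucleus and translated by cytosolic ribosomes, and the proteins are then imported. Many of the proteins descend from bacterial ribosomal proteins and others were gained in the mitochondrial lineage. Mettl3 and Mettl14 form the complex that writes N6-methyladenosine (m6A) into nuclear messages, a mark that is known to shorten the life of many messages in embryonic stem cells.

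The cells were J1 mouse embryonic stem cells grown in serum and LIF on irradiated feeder fibroblasts, and the values came from 26 expression arrays in 13 groups of 2. A time course held Mettl14 knockdown, Mettl3 knockdown and scramble control cells, each at 0, 4 and 8 h, which makes 9 groups. A repeat set held Mettl14 knockdown cells with their own scramble control and Mettl3 knockdown cells with theirs, all at 0 h, which makes 4 groups. No label says what the cells were incubated with for 4 or 8 h. The protocols describe both a lentiviral short hairpin RNA and a transfected small interfering RNA without saying which arrays had which, and polyadenylated RNA was purified. In both scramble groups of the repeat set, the description of replicate 2 gives 4 h but its title and time label 0 h. These 2 arrays were used as 0 h, and without them the repeat set had 7 members called in each comparison below. The labels call the arrays of a group biological replicates without saying what was separate, so p-values measure only the spread between these samples.

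The deposited values are log2 array signals after robust multi-array averaging. It equalizes the distribution of probe signals over arrays treated together, before they are summarized per probe set. A change is therefore a change relative to the rest of the RNA on an array, and with 2 arrays a group the number of arrays limits the precision. The probe-set values kept small offsets between arrays. Over all probe sets the median of the 2 scramble arrays was 6.49 and 6.50 at 0 h, 6.32 and 6.35 at 4 h, and 6.36 and 6.39 at 8 h. Over the genes tested it was 8.21 and 8.19, 8.24 and 8.22, and 8.12 and 8.08. Replicate arrays correlated at r = 0.994 to 0.997 over probe sets, and the median gap between replicates of a member was 0.03 to 0.08 log2 units. The widest gap was 0.77, for Mrpl47 between the 2 Mettl14 knockdown arrays at 0 h. In the Mettl14 knockdown at 0 h the log2 level of Mettl14 fell by 1.70 ± 0.13 (SE) in the time course (limma, adjusted p = 9.59e-07), and fell by 1.36 ± 0.10 in the repeat set (limma, adjusted p = 0.000158). The knockdown deepened over the time course. Mettl14 differed from scramble cells by -2.48 at 4 h and -2.66 at 8 h (limma, adjusted p = 3.9e-08 and 1.69e-08). The only probe set for Mettl3 also lists Tox4. It read 9.15 in the Mettl3 knockdown and 11.04 in scramble cells at 0 h, while the probe set of Tox4 alone did not pass the test there. In Mettl14 knockdown this shared probe set read 10.56 and 10.52 at 0 h. At 8 h it read 8.04 and 8.02 in Mettl3 knockdown, 10.24 and 10.17 in Mettl14 knockdown and 10.65 and 10.71 in scramble cells. Of 8 stem cell markers 7 were tested, and their mean log2 level per array was 10.95 to 11.01 in Mettl14 knockdown, 10.96 in Mettl3 knockdown and 11.51 to 11.53 in scramble cells at 0 h. Of 12 feeder fibroblast markers 9 were tested, since Postn, Lum and Dcn were among the dimmest genes, and their mean was 7.79 to 7.88, 7.80 to 7.84 and 7.34 to 7.35 in the same 3 groups. Of 7 trophectoderm markers 6 were tested, without the dim Elf5, and the mean was 8.75 to 8.78, 8.85 to 8.90 and 8.08 to 8.14. Of 6 primitive endoderm markers 5 were tested, without the dim Gata6 (6.28 to 6.44, 6.38 to 6.40 and 6.81 to 6.82), and the 4 neural markers had 8.07 to 8.12, 8.20 to 8.298 and 8.04 to 8.10.

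Promoters of 62 of the 71 genes were found in RefSeq (build GRCm38.p6), each as 300 bases that run from 250 bases before the annotated start to 50 bases after it. Both strands were searched for the words CCGGAAG (bound by ETS factors such as GABP), GCATGCGC (from the NRF1 motif) and ATGGCGGC (from the YY1 motif). The ETS word lay in 23 of the 62 promoters (37.1%), against 17.3% of the 11545 tested genes that have an entry. The YY1 word lay in 11 (17.7%, against 4.84%) and the NRF1 word in 7 (11.3%, against 5.4%). A match describes the letters in the window and shows no binding. The 5 promoters below belong to genes whose knockdown and time changes are described next, and capitals mark a word that was found. Mrpl46 and Mrps11 are transcribed away from each other from starts 42 bases apart, so that their windows overlap.
Mrps22 (minus strand, chr9:98601630-98601929, ETS word): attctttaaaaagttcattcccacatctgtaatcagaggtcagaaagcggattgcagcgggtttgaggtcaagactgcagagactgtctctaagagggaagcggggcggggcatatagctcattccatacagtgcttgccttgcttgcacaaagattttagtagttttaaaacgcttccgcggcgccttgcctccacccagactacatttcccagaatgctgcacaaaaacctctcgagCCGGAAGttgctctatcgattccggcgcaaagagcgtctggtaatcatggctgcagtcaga
Mrpl46 (minus strand, chr7:78783040-78783339, none of the 3 words): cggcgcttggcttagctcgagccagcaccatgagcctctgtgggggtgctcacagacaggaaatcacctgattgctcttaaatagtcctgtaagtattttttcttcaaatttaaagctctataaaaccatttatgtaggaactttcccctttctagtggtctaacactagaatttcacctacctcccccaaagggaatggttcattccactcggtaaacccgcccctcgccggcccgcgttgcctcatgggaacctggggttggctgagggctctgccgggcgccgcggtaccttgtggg
Mrps11 (plus strand, chr7:78782881-78783180, YY1 word): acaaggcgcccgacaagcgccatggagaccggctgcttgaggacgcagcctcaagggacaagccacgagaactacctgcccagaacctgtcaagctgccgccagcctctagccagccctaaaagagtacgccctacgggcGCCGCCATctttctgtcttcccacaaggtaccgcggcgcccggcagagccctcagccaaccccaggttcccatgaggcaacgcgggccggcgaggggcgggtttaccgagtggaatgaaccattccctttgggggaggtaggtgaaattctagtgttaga
Mrps2 (plus strand, chr2:28467816-28468115, none of the 3 words): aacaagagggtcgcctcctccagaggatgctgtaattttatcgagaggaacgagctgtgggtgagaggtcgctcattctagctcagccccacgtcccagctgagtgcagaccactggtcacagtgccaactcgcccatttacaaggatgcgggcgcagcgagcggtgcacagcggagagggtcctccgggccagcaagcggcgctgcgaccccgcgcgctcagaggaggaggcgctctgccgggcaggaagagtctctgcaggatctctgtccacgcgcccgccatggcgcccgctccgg
Mrpl16 (plus strand, chr19:11770165-11770464, none of the 3 words): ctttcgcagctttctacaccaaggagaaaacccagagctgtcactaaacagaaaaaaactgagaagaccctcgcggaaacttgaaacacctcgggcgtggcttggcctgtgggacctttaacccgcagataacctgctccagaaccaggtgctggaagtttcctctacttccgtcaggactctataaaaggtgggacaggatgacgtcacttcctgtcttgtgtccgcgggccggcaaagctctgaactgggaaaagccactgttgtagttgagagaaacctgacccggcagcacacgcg

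The comparison at 0 h asks how loss of either methyltransferase subunit moved these messages. In bulk RNA, fewer cells of a type and less RNA per cell cannot be told apart. In the time course, Mettl14 knockdown gave 7 members higher and 26 lower at an adjusted p under 0.05, against 19.4% higher and 20.1% lower of all 14787 genes tested (39.5% together). Mettl3 knockdown gave 5 higher and 18 lower (all genes 19.3% and 18.6%, 37.8% together). In the repeat set, Mettl14 knockdown gave 13 higher and 11 lower (all genes 19.4% and 16.9%, 36.2% together), and Mettl3 knockdown 9 higher and 15 lower (all genes 17.9% and 17.4%, 35.3% together). These counts fell when certain single arrays were left out. That leaves 1 array in a group and less power, so a fall does not mark the array as unusual. The 33 members called with Mettl14 knockdown in the time course became 17 without its knockdown replicate 2 and 18 without scramble replicate 1, and the 23 called with Mettl3 knockdown became 14 without scramble replicate 1. The 24 called in each repeat-set comparison became 10 to 15 for Mettl14 without any 1 of its 4 arrays, and 11 to 13 for Mettl3 without either of its scramble arrays or without knockdown replicate 1. The median log2 change of the 71 was -0.09 and -0.06 in Mettl14 and Mettl3 knockdown of the time course, against medians of 0.00 for all genes, and 0.00 and -0.04 in the repeat set, where it turned to 0.11 and 0.13 when arrays were shifted to an equal median of a list of long-lived messages. The same shift lowered the time-course medians, by more than it raised those of the repeat set. It moves every gene of a comparison alike, so the time-course rises named below are lowered by as much. The counts it gave are in the section on processing. The 2 time-course comparisons share their scramble arrays.

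Mrpl16, a large subunit protein with a bacterial counterpart, was higher in all 4 comparisons, whichever single array was left out. Its log2 levels at 0 h were 11.41 and 11.24 in Mettl14 knockdown, 11.08 and 11.15 in Mettl3 knockdown and 10.86 and 10.72 in scramble cells. Those of the repeat set were 11.30 and 11.26 in Mettl14 knockdown against 10.93 and 10.97 in its scramble, and 11.20 and 11.23 in Mettl3 knockdown against 10.99 and 10.98. Every knockdown array was above every control array of its set. The log2 change was 0.54 ± 0.07 (SE; 1.45-fold) and 0.33 in the time course (limma, adjusted p = 9.3e-05 and 0.0035) and 0.33 ± 0.04 and 0.23 ± 0.04 in the repeat set (limma, adjusted p = 0.0012 and 0.0057). Shifted to an equal median of long-lived messages, the Mettl3 change of the time course was -0.0016.

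Mrps34, a small subunit protein without a bacterial counterpart that is mutated in a human mitochondrial disease, had 9.10 and 9.07 in Mettl14 knockdown, 9.10 and 8.96 in Mettl3 knockdown and 8.72 and 8.59 in scramble cells. Its repeat-set levels were 8.19 and 8.19 in Mettl14 knockdown against 7.78 and 7.79 in its scramble, and 8.32 and 8.18 in Mettl3 knockdown against 8.00 and 7.86. The groups did not overlap in any of the 4 pairs, and the log2 changes were 0.43 ± 0.08, 0.38 ± 0.08, 0.41 ± 0.07 and 0.32 ± 0.07 (limma, adjusted p = 0.00063, 0.0017, 0.0036 and 0.0099). The last of these lost its call without replicate 2 of the Mettl3 repeat scramble (limma, adjusted p = 0.0536) or without replicate 1 of its knockdown (0.0516). A probe set that lists Mrps34 together with Nme3 read 0.20 and 0.19 higher in the time course. Shifting arrays to an equal median of long-lived messages leaves little of the time-course changes on the probe set of Mrps34 alone.

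Mrpl46 lies in the large subunit and has no bacterial counterpart, while Mrps11, its divergent neighbour, is a bacterial-type small subunit protein. Mrpl46 had 8.68 and 8.57 in Mettl14 knockdown, 8.53 and 8.73 in Mettl3 knockdown and 8.04 and 8.18 in scramble cells, a log2 change of 0.51 ± 0.09 and 0.52 (limma, adjusted p = 0.00064 and 0.00068). Its repeat-set levels were 8.45 and 8.55 in Mettl14 knockdown against 7.70 and 7.99 in its scramble, and 8.52 and 8.55 in Mettl3 knockdown against 8.25 and 8.24. Its changes there were 0.66 ± 0.09 and 0.29 ± 0.09 (limma, adjusted p = 0.0017 and 0.046). The last was lost without any of 6 single arrays (limma, adjusted p = 0.0645 to 0.145). Mrps11 had 9.98 and 9.98 in Mettl14 knockdown, 9.88 and 9.76 in Mettl3 knockdown and 9.75 and 9.78 in scramble cells. It passed only in the Mettl14 knockdown of the time course, by 0.21 ± 0.06 (limma, adjusted p = 0.014), and that call was lost without any of 3 single arrays (limma, adjusted p = 0.0512 to 0.0746) and turned to -0.17 after a shift to an equal median of long-lived messages. Mrps11 thus passed in 1 of the 4 comparisons and Mrpl46 in all 4, and the difference between them was not tested.

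Among members that were lower, Mrps22, a small subunit protein without a bacterial counterpart that is mutated in human mitochondrial disease, had 9.34 and 9.31 in Mettl14 knockdown, 9.48 and 9.33 in Mettl3 knockdown and 9.67 and 9.69 in scramble cells. In the repeat set it had 8.78 and 8.75 in Mettl14 knockdown against 9.11 and 8.999 in its scramble, and 8.87 and 8.72 in Mettl3 knockdown against 9.14 and 9.11. All knockdown arrays were below their controls. The log2 changes were -0.36 ± 0.08, -0.28, -0.29 ± 0.06 and -0.33 (limma, adjusted p = 0.0037, 0.016, 0.012 and 0.008). The Mettl3 time-course call was lost without either scramble array or without replicate 2 of the knockdown (limma, adjusted p = 0.0579, 0.0747 and 0.132). The Mettl14 repeat call was lost without its scramble replicate 1 or its knockdown replicate 2 (0.0699 and 0.0612).

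Mrpl24, a bacterial-type protein of the large subunit, had 10.28 and 10.38 in Mettl14 knockdown, 10.38 and 10.37 in Mettl3 knockdown and 10.91 and 10.85 in scramble cells. The log2 changes of -0.55 ± 0.07 and -0.51 (limma, adjusted p = 4.2e-05 and 9.2e-05) put it at 68.3% and 70.5% of the scramble level. Its repeat-set changes were -0.17 ± 0.05 and -0.30 (limma, adjusted p = 0.041 and 0.0045), and the Mettl14 call there was lost without any of 6 single arrays (limma, adjusted p = 0.0645 to 0.168). Mrps31, a small subunit protein without a bacterial counterpart, had 9.82 and 9.85, 10.05 and 9.87 and 10.28 and 10.26 in Mettl14 knockdown, Mettl3 knockdown and scramble cells. It was lower in all 4 comparisons, with changes of -0.44 ± 0.07 and -0.31 in the time course and -0.22 ± 0.05 and -0.35 in the repeat set (limma, adjusted p = 0.00043, 0.0051, 0.01 and 0.0017). Its Mettl3 time-course call was lost without knockdown replicate 2 (limma, adjusted p = 0.0586), and its Mettl14 repeat call without either of 2 arrays (0.0615 and 0.0534).

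Mrpl47, the mitochondrial relative of bacterial L29, had the largest falls in the time course, with 8.13 and 7.36 in Mettl14 knockdown, 7.65 and 7.79 in Mettl3 knockdown and 8.57 and 8.62 in scramble cells. The changes were -0.85 ± 0.24 and -0.88 (limma, adjusted p = 0.013 and 0.012) and, in the repeat set, -0.47 ± 0.11 and -0.53 (limma, adjusted p = 0.016 and 0.011). The knockdown replicates lay far apart, and none of the 4 calls outlasted the removal of every single array. Without replicate 2 of the Mettl14 knockdown the adjusted p was 0.157 (limma). The second probe set of Mrpl47 differed by -0.34 and -0.39 at 0 h in the time course, and its changes over time are given below.

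**Figure D1:**
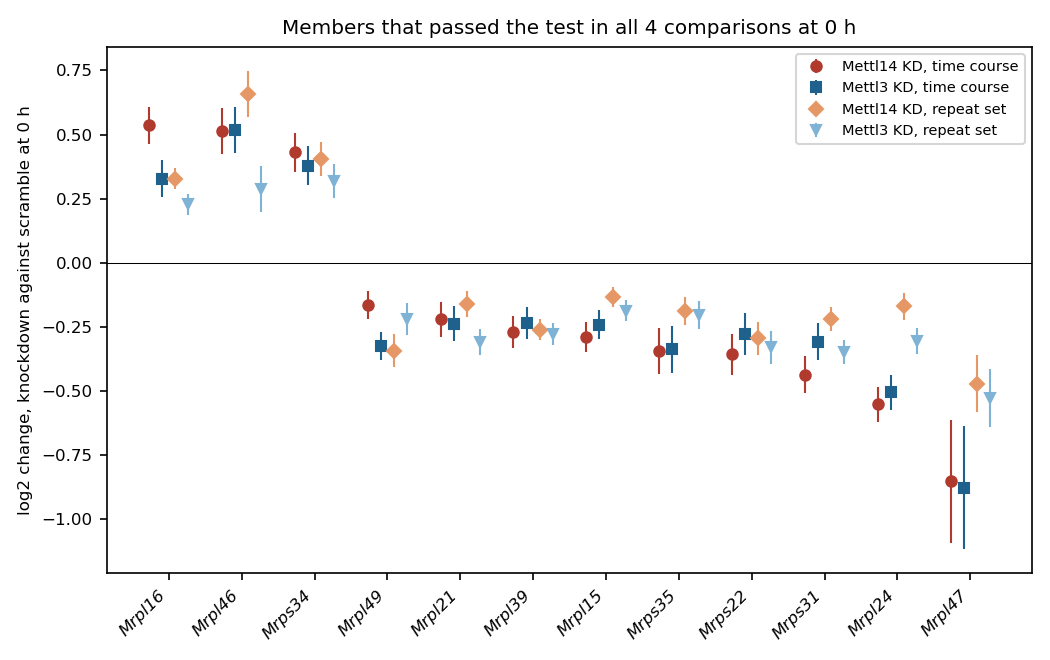
Log2 change at 0 h (knockdown minus scramble, vertical axis) with its standard error for the 12 members that passed with 1 sign in all 4 comparisons. The 2 time-course comparisons share their scramble arrays. Mrpl16, Mrpl46 and Mrps34 lie above 0, and the other 9, Mrpl15, Mrpl21, Mrpl24, Mrpl39, Mrpl47, Mrpl49, Mrps22, Mrps31 and Mrps35, lie below it.

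As shares of the 71, the 3 that were higher in all 4 comparisons made 4.23% (8.36% of all genes) and the 9 that were lower 12.7% (7.16% of all genes), in comparisons of which 2 share their scramble arrays. Of these 12 members, Mrpl24, Mrpl46 and Mrps34 kept 3 of their 4 calls whichever single array was left out, and Mrpl47 and Mrps35 kept 0. The calls of the time course and of the repeat set, which share no arrays, were compared as lists. For Mettl14 knockdown 5 members were higher in both (Mrpl16, Mrpl34, Mrpl46, Mrps2 and Mrps34), 71.4% of the time-course list and 38.5% of the repeat list, against 58.5% and 58.6% over all genes. The 10 lower in both made 38.5% and 90.9% of the lists, against 49.2% and 58.7%. For Mettl3 knockdown 3 were higher in both, Mrpl16, Mrpl46 and Mrps34 (60% and 33.3% of the lists, against 61.8% and 66.7%), and 11 were lower in both (61.1% and 73.3%, against 59.2% and 63.2%). Mrps23, a small subunit protein without a bacterial counterpart, had opposite calls. It read 9.66 and 9.66 in Mettl3 knockdown against 9.39 and 9.36 in scramble cells of the time course, and 8.96 and 8.86 against 9.14 and 9.15 in the repeat set. The changes were 0.28 ± 0.07 and -0.23 ± 0.05 (limma, adjusted p = 0.0059 and 0.0092), and the first was -0.046 after a shift to an equal median of long-lived messages.

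Whether the sets differed was tested as the knockdown effect of the time course minus that of the repeat set, in 1 limma fit of all 26 arrays. For Mettl14 knockdown 7 members differed, all with the time-course effect lower, or 9.86% against 16.5% of all genes (7.86% higher, 8.64% lower). For Mettl3 knockdown 3 differed, 4.23% against 9.81% of all genes (6.15% higher, 3.66% lower). The 7 became 3 or 4 without any of 4 single arrays, both scramble arrays of the time course at 0 h and replicate 2 of both repeat-set groups, and the 3 became 1 without any of 4, replicate 1 of scramble and of Mettl3 knockdown in the time course, repeat scramble replicate 1 and repeat knockdown replicate 2. Mrpl36, the relative of bacterial L36, had 8.65 and 8.56 in Mettl14 knockdown, 8.42 and 8.67 in Mettl3 knockdown and 9.12 and 8.91 in scramble cells of the time course. Its repeat-set levels were 8.73 and 8.72 in Mettl14 knockdown against 8.62 and 8.40, and 8.69 and 8.77 in Mettl3 knockdown against 8.67 and 8.73. All knockdown arrays were below the control arrays in the time course, and in the repeat set they were above them or among them. The effects differed by -0.63 ± 0.12 for Mettl14 and -0.49 ± 0.12 for Mettl3 (limma, adjusted p = 0.0018 and 0.015). Mrpl36 has a second, dimmer probe set (mean 7.21 against 8.90 over all arrays), whose changes are not given here. The Mettl3 difference was lost without any of 4 single arrays (limma, adjusted p = 0.0632 to 0.0841).

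Mrpl52, a large subunit protein, fell in the time course (-0.34 and -0.29), and its repeat-set changes of -0.02 and -0.06 did not pass. Its effects differed by -0.31 ± 0.06 and -0.24 (limma, adjusted p = 0.0026 and 0.025), and the Mettl3 difference was lost without any of 6 single arrays (limma, adjusted p = 0.0525 to 0.102). Mrpl42, a large subunit protein, had 9.93 and 9.34 in Mettl14 knockdown against 10.36 and 10.23 in scramble cells of the time course, and 9.58 and 9.60 against 9.64 and 9.79 in the repeat set. Its difference of -0.54 ± 0.18 (limma, adjusted p = 0.048) was lost without any of 23 of the arrays. Mrpl24 differed by -0.38 ± 0.09 for Mettl14 (limma, adjusted p = 0.0066), Mrpl2 by -0.32 ± 0.10 (0.035), and Mrpl14 and Mrpl55 by -0.28 (0.036) and -0.30 (0.021). The Mrpl2 call was lost without any of 5 single arrays (limma, adjusted p = 0.0663 to 0.141), that of Mrpl14 without any of 8 (0.0676 to 0.105) and that of Mrpl55 without any of 5 (0.0529 to 0.0783). Mrps23 differed by 0.52 ± 0.09 for Mettl3 (limma, adjusted p = 0.00092), whichever array was left out. Shifting arrays to an equal median of long-lived messages leaves little of this difference.

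**Figure D2:**
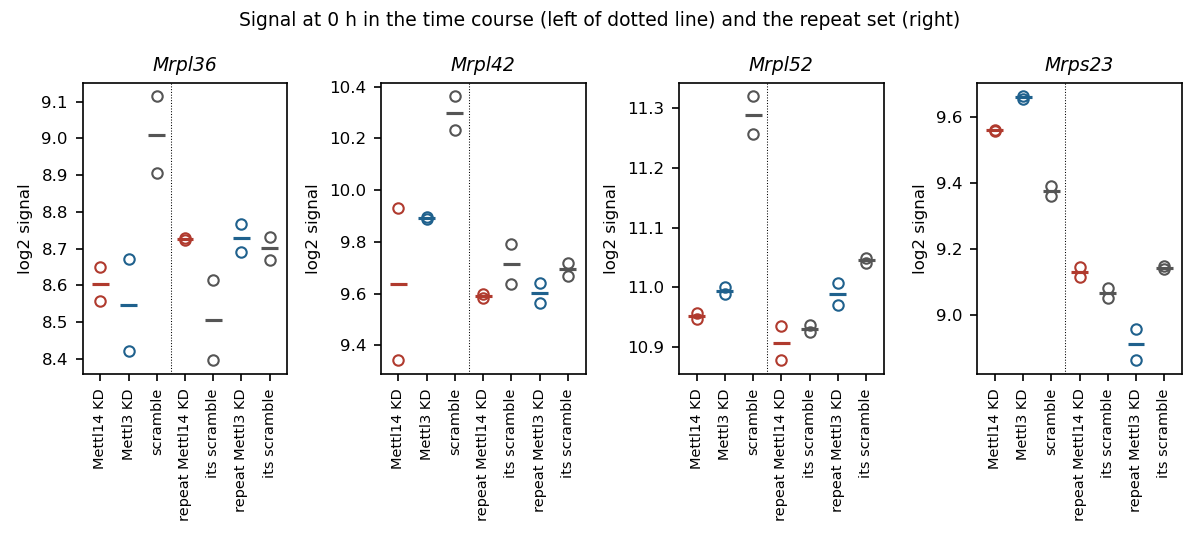
Log2 level on each array at 0 h of Mrpl36, Mrpl42, Mrpl52 and Mrps23, the time course left of the dotted line and the repeat set right of it; bars are group means of 2 arrays. Knockdown arrays of Mrpl36, Mrpl42 and Mrpl52 lie below their scramble arrays in the time course and near or among them in the repeat set.

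Mrps21, a bacterial-type small subunit protein, was higher only in the repeat set, with 8.23 and 8.16 in Mettl14 knockdown against 7.85 and 7.84, and 8.31 and 8.31 in Mettl3 knockdown against 7.96 and 7.82. The changes were 0.35 ± 0.06 and 0.42 ± 0.06 (limma, adjusted p = 0.0036 and 0.0016), and the time-course changes of 0.01 and 0.07 did not pass. The difference between the sets did not pass either for Mettl14 (-0.34, limma, adjusted p = 0.2). Of the other members with the largest changes, Mrpl34 rose with Mettl14 knockdown by 0.23 in the time course and 0.20 in the repeat set and with Mettl3 knockdown by 0.28 in the repeat set. The first of these was lost without Mettl14 knockdown replicate 2 (limma, adjusted p = 0.0606) and turned to -0.15 after a shift to an equal median of long-lived messages, and the second was lost without any of 3 single arrays (0.0731 to 0.114). Mrpl14 rose there with Mettl14 knockdown by 0.39, and Mrpl20 with Mettl3 knockdown by 0.30, which was lost without any 1 of the 4 arrays compared (limma, adjusted p = 0.0593 to 0.0921). Mrpl27 fell with Mettl14 knockdown, with changes of -0.51 and -0.25 (limma, adjusted p = 0.037 and 0.045), which were lost without any of 3 single arrays in the time course (limma, adjusted p = 0.11 to 0.231) and any of 7 in the repeat set (0.0503 to 0.204). Mrps9 fell with Mettl3 knockdown, with changes of -0.42 and -0.33, and also with Mettl14 knockdown in the time course. Mrpl49, Mrpl39 and Mrpl21 were lower in all 4 comparisons. They were among the largest falls in the repeat set, the first 2 with Mettl14 knockdown (-0.34 and -0.26) and Mrpl21 with Mettl3 knockdown (-0.31). Mrps36, a protein now counted with the oxoglutarate dehydrogenase complex, fell by 0.53 with Mettl14 knockdown in the time course (limma, adjusted p = 0.046), a call that was lost when dim genes were kept in the test (0.0798) and without any of 9 single arrays (0.0551 to 0.258).

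The counts that follow are to be read against all genes. Of these, 19.4% were higher and 20.1% lower with Mettl14 knockdown in the time course, and 19.3% and 18.6% with Mettl3 knockdown. In the repeat set these shares were 19.4% and 16.9%, and 17.9% and 17.4%. By symbol, which counts Mrps30, Mrps18a and Mrps36 with the small subunit although they lie elsewhere, the large subunit had 4 of 43 higher and 17 lower in Mettl14 knockdown of the time course (median -0.14), and the small subunit 3 of 28 higher and 9 lower (median -0.06). In Mettl3 knockdown these were 2 and 14 (median -0.10) and 3 and 4 (median -0.02). In the repeat set the large subunit had 8 higher and 8 lower with Mettl14 knockdown and 6 and 8 with Mettl3 knockdown, and the small subunit 5 and 3, and 3 and 7. The 44 members with a bacterial counterpart had 4 higher and 16 lower in Mettl14 knockdown of the time course, and the 27 without one had 3 and 10. Of 65 cytosolic ribosomal proteins, 2 were higher and 6 lower in Mettl14 knockdown and 4 and 6 in Mettl3 knockdown. Stem cell markers were lower beside these changes in 5, 6, 7 and 6 of 7 in the 4 comparisons, feeder markers were higher in 4, 4, 3 and 2 of 9, and trophectoderm markers were higher in 3, 2, 4 and 4 of 6. Of 5 primitive endoderm markers 1, 1, 0 and 0 were higher and 1, 1, 2 and 2 lower, and of 4 neural markers 1, 1, 0 and 1 were higher and 3, 3, 3 and 2 lower. Their part in the members' changes was not tested.

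The same comparison was made at 4 h and 8 h. At 4 h Mettl14 knockdown gave 16 members higher and 20 lower than scramble (all genes 20% and 19.5%), and Mettl3 knockdown 10 and 14 (all genes 19.4% and 18.4%). The 36 called with Mettl14 knockdown became 23 without its replicate 1 at 4 h. At 8 h these were 19 and 23 (all genes 23.8% and 19.8%) and 16 and 19 (all genes 23.8% and 19%). Both knockdowns are set against the same scramble arrays at each time. The median change of the members was -0.03 in each knockdown at 8 h, against -0.01 for all genes, a difference between the medians of -0.02 in each knockdown. Mrps34 had the largest rise, with 9.87 and 9.73 in Mettl14 knockdown, 9.67 and 9.61 in Mettl3 knockdown and 8.72 and 8.72 in scramble cells at 8 h. Its change was 1.08 ± 0.08 (2.11-fold) and 0.92 ± 0.08 (1.89-fold; limma, adjusted p = 2.7e-07 and 1.1e-06).

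Mrps22 had the largest fall at 8 h, with 8.46 and 8.62 in Mettl14 knockdown, 8.65 and 8.44 in Mettl3 knockdown and 9.47 and 9.54 in scramble cells. Both knockdowns held 51.2% of the scramble level, by log2 changes of -0.96 ± 0.08 and -0.97 (limma, adjusted p = 1.3e-06 and 1.4e-06). Mrps2, a bacterial-type protein of the small subunit head, had 8.77 and 8.78, 8.76 and 8.66, and 8.07 and 7.99 in Mettl14 knockdown, Mettl3 knockdown and scramble cells at 8 h. It was 1.68-fold and 1.60-fold higher (log2 0.74 ± 0.06 and 0.68; limma, adjusted p = 4.3e-07 and 1e-06). Mrpl16 was higher by 0.82 ± 0.07 and 0.52 and Mrpl46 by 0.80 and 0.85 (limma, adjusted p = 2.3e-06, 9.7e-05, 1.5e-05 and 1e-05). Mrps11, beside Mrpl46, was higher by 0.37 and 0.28. Mrpl50, a large subunit protein without a bacterial counterpart, was higher by 0.63 ± 0.04 in Mettl14 knockdown and 0.23 in Mettl3 knockdown (limma, adjusted p = 3.2e-07 and 0.0011). Mrps18c, a bacterial-type small subunit protein, was lower (-0.67 and -0.64). Mrpl1, the relative of bacterial L1, was lower in Mettl14 knockdown (-0.60) and also in Mettl3 knockdown (mean 9.20, against 9.63 in scramble cells).

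The time comparison asks how each message moved between 0 h and 4 or 8 h of the incubation. On the deposited scale more members rose than fell in each treatment, but shifted to an equal median of long-lived messages the calls were 7 higher and 14 lower at 4 h in Mettl3 knockdown, 3 and 6 at 4 h in scramble cells, 14 and 18 at 8 h in Mettl3 knockdown and 3 and 33 at 8 h in scramble cells. Of all genes, that shift called 3.01% higher and 34.6% lower, 3.23% and 25.2%, 10.3% and 35.8%, and 2.78% and 52% in the same 4 comparisons. At 4 h 44 rose and 2 fell in Mettl14 knockdown (all genes 33% and 13.1%), 42 and 3 in Mettl3 knockdown (all genes 31.5% and 13.1%) and 40 and 1 in scramble cells (all genes 32.7% and 13.5%), where the 41 called became 26 without scramble replicate 1 at 4 h. At 8 h 49 rose and 6 fell in Mettl14 knockdown (all genes 36.8% and 19.4%), 41 and 7 in Mettl3 knockdown (all genes 36.9% and 19.2%) and 33 and 6 in scramble cells (all genes 39.2% and 21.6%). The 4 h and 8 h changes of a treatment share its 0 h arrays. The median log2 change of the 71 at 4 h was 0.29, 0.24 and 0.23 in the 3 treatments, against 0.12, 0.10 and 0.13 for all genes. At 8 h it was 0.33, 0.27 and 0.19 (all genes 0.12, 0.11 and 0.15), a direction that turned in scramble cells to -0.22 when arrays were shifted to an equal median of long-lived messages and to -0.03 by the median deviation of those messages. At 4 h these shifts gave 0.16, -0.03 and 0.00, and 0.15, 0.09 and 0.05. Such a shift moves members and all other genes alike, so it could not change how far the members' median lay from that of all genes. At 8 h the members' median was the higher by 0.21, 0.16 and 0.05 in the 3 treatments.

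**Figure D3:**
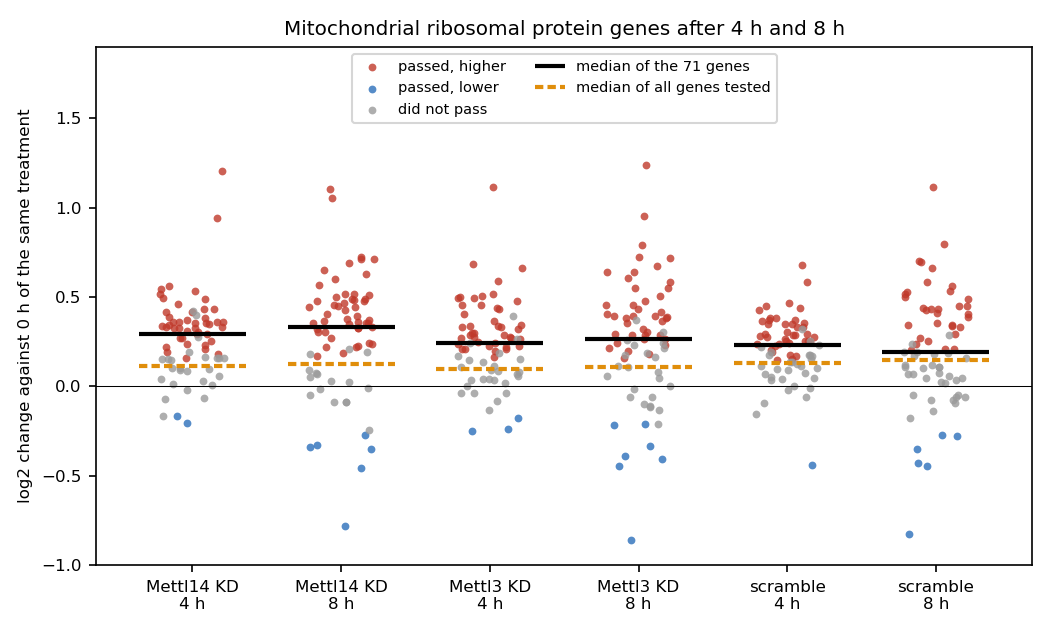
Log2 change from 0 h of the same treatment for each of the 71 members, at 4 h and 8 h in Mettl14 knockdown, Mettl3 knockdown and scramble cells; red members passed higher, blue passed lower, grey did not pass, the black line is the members' median and the dashed orange line the median of all 14787 genes. The black line lies above the orange one in all 6 columns, by 0.05 at 8 h in scramble cells and by 0.21 at 8 h in Mettl14 knockdown.

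The 3 treatments share no arrays in these comparisons. At 8 h 29 members rose in all 3 (40.8% of 71, against 26.8% of all genes) and 4 fell in all 3, Mrpl32, Mrps2, Mrps18b and Mrps31 (5.63%, against 15%). At 4 h 34 rose in all 3 (47.9%, against 22.2%) and Mrps2 alone fell (1.41%, against 9.43%), a fall lost without either of 2 arrays in Mettl14 knockdown and any of 3 in Mettl3 knockdown (limma, adjusted p = 0.0577 to 0.147). Of the 29 that rose at 8 h, 21 were called in all 3 treatments whichever single array was left out, and of the 34 at 4 h 14 were. The members were brighter than all genes tested (median level 9.61 against 8.19), and the part of this in these shares was not tested. Over all genes 36.8%, 36.9% and 39.2% were higher at 8 h in the 3 treatments, and 19.4%, 19.2% and 21.6% lower. By symbol, the large subunit had 31, 27 and 22 of 43 higher at 8 h and 2, 3 and 3 lower, and the small subunit 18, 14 and 11 of 28 higher and 4, 4 and 3 lower. Their medians of 0.33, 0.29 and 0.24, and 0.34, 0.25 and 0.17, turned in scramble cells to -0.18 and -0.24 under the equal median shift. Of the 65 cytosolic ribosomal proteins, 46, 43 and 49 rose and 3, 3 and 1 fell, with medians of 0.27, 0.25 and 0.31 that became 0.11, -0.01 and -0.10 under that shift. Stem cell markers fell at 8 h in 3, 4 and 5 of 7 and feeder markers rose in 5, 5 and 6 of 9, and their part in the members' changes was not tested.

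Mrpl11, at the base of the stalk that recruits translation factors, rose in every treatment at both times. Its log2 levels at 0, 4 and 8 h were 9.88 and 9.92, 10.46 and 10.37, and 10.62 and 10.63 in Mettl14 knockdown. They were 9.99 and 9.91, 10.52 and 10.38, and 10.66 and 10.68 in Mettl3 knockdown, and 10.04 and 10.11, 10.57 and 10.51, and 10.77 and 10.71 in scramble cells. No 8 h array overlapped a 0 h array of its treatment. The 8 h changes were 0.73 ± 0.06, 0.72 and 0.66 (1.65-, 1.65- and 1.58-fold; limma, adjusted p = 1.1e-06, 1.2e-06 and 2e-06), and none was lost without any single array.

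Mrps33, a small subunit protein without a bacterial counterpart, rose by 0.65, 0.64 and 0.80 ± 0.08 at 8 h (limma, adjusted p = 2.2e-05, 2.7e-05 and 4.2e-06). Mrpl28, of the bacterial L28 family, rose by 0.69, 0.79 ± 0.08 and 0.56, and Mrpl54, a large subunit protein, by 0.72, 0.72 and 0.50. All of these 8 h calls were kept without any single array. Mrpl42 had 9.93 and 9.34, 10.56 and 10.61, and 10.64 and 10.84 in Mettl14 knockdown at 0, 4 and 8 h. In Mettl3 knockdown it had 9.89 and 9.90, 10.58 and 10.53, and 10.82 and 10.86, and in scramble cells 10.36 and 10.23, 10.61 and 10.71, and 11.05 and 10.95. Its 8 h changes of 1.10 ± 0.14, 0.95 and 0.70 (limma, adjusted p = 3.3e-05, 0.0001 and 0.00095) included a 2.15-fold rise in Mettl14 knockdown, where Mrpl42 and Mrpl47 were the 2 members that rose at least 2-fold.

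Mrpl47 rose on its brighter probe set by 1.06 ± 0.24, 1.24 and 1.12 at 8 h (limma, adjusted p = 0.0024, 0.00081 and 0.0016). Its other single-gene probe set changed by -0.46, -0.22 and 0.11, and a probe set it shares with Actl6a changed by 0.15, 0.26 and 0.31. The rise of Mrpl47 over time therefore rests on 1 of its probe sets, and which of them reads the message best was not tested.

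Of the members that fell, Mrps18b, a small subunit protein of the S18 family, had 11.11 and 11.06, 11.001 and 11.04, and 10.78 and 10.70 in Mettl14 knockdown at 0, 4 and 8 h. It had 11.16 and 11.17, 10.98 and 10.87, and 10.77 and 10.74 in Mettl3 knockdown, and 11.19 and 11.13, 11.08 and 10.94, and 10.69 and 10.78 in scramble cells. The levels at 8 h were below those at 0 h in every treatment, with changes of -0.34 ± 0.06, -0.41 and -0.43 (limma, adjusted p = 0.00052, 0.00014 and 9.2e-05). A second probe set of Mrps18b changed by -0.11, -0.19 and -0.24. Mrpl32, whose precursor is cut by the mitochondrial m-AAA protease, fell, with changes of -0.35 ± 0.14, -0.39 and -0.44 (limma, adjusted p = 0.049, 0.03 and 0.015). The Mettl14 call of Mrpl32 was lost without any of 15 single arrays (limma, adjusted p = 0.0517 to 0.453), the Mettl3 call without any of 3 (0.0543 to 0.152) and the scramble call without any of 3 (0.0539 to 0.163). Mrps31 fell, with changes of -0.46, -0.44 and -0.28 (limma, adjusted p = 0.00018, 0.00023 and 0.0055).

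Where the 8 h change itself differed between a knockdown and scramble cells was tested directly, for both knockdowns against the same scramble arrays. It differed for 8 members in Mettl14 knockdown, 7 higher and 1 lower (11.3%, against 4.99% of all genes, 3.58% higher and 1.41% lower), and for 4 in Mettl3 knockdown, 3 higher and 1 lower (5.63%, against 3.47%, 2.46% higher and 1.01% lower). The 8 became 5 without replicate 2 of scramble or of Mettl14 knockdown at 0 h, and the 4 became 2 without scramble replicate 2 or Mettl3 knockdown replicate 1 at 8 h. The 8 h change of Mettl14 itself differed by -0.96 ± 0.19 in Mettl14 knockdown (limma, adjusted p = 0.0139). The part of this deeper knockdown in the members' differences was not tested. Mrps34 had 9.10 and 9.07, 9.61 and 9.63, and 9.87 and 9.73 in Mettl14 knockdown at 0, 4 and 8 h. It had 9.10 and 8.96, 9.62 and 9.47, and 9.67 and 9.61 in Mettl3 knockdown, and 8.72 and 8.59, 8.97 and 8.82, and 8.72 and 8.72 in scramble cells. It rose by 8 h in both knockdowns, by 0.72 ± 0.08 and 0.61 (limma, adjusted p = 7.7e-06 and 2.9e-05), and its change of 0.07 in scramble cells did not pass. The 8 h changes exceeded that of scramble cells by 0.65 ± 0.11 and 0.54 ± 0.11 (limma, adjusted p = 0.0054 and 0.018). The Mettl3 difference was lost without any of 4 single arrays (limma, adjusted p = 0.0548 to 0.0821). The probe set that lists Mrps34 with Nme3 changed by 0.47, 0.50 and 0.56 in the 3 treatments, and so did not show this divergence.

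Mrps22 moved the other way. It had 9.34 and 9.31, 9.12 and 9.20, and 8.46 and 8.62 in Mettl14 knockdown at 0, 4 and 8 h. It had 9.48 and 9.33, 9.21 and 9.10, and 8.65 and 8.44 in Mettl3 knockdown, and 9.67 and 9.69, 9.81 and 9.83, and 9.47 and 9.54 in scramble cells. The knockdown arrays at 8 h were below all others. By 8 h it fell in the knockdowns, with changes of -0.78 and -0.86 (limma, adjusted p = 6.7e-06 and 3.3e-06), to 58.1% and 55% of the 0 h level, and its change of -0.17 in scramble cells did not pass. The differences were -0.61 ± 0.11 and -0.69 ± 0.11 (limma, adjusted p = 0.011 and 0.008), and both were kept whichever single array was left out.

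Mrps2 fell in scramble cells and less in the knockdowns. It had 9.02 and 9.08, 8.86 and 8.91, and 8.77 and 8.78 in Mettl14 knockdown, 9.07 and 9.02, 8.89 and 8.86, and 8.76 and 8.66 in Mettl3 knockdown, and 8.91 and 8.81, 8.41 and 8.42, and 8.07 and 7.99 in scramble cells. The 8 h changes were -0.27 and -0.34 in the knockdowns and -0.82 ± 0.06 in scramble cells (limma, adjusted p = 0.0011, 0.00024 and 1.4e-07). They differed by 0.55 ± 0.08 and 0.49 ± 0.08 (limma, adjusted p = 0.0026 and 0.0062), whichever array was left out. The smaller difference of Mrps2 at 0 h, 0.19 ± 0.06 and 0.19 in the time course (limma, adjusted p = 0.014 and 0.016), was lost without scramble replicate 2 (0.127 and 0.136), and the Mettl3 change was -0.14 after a shift to an equal median of long-lived messages.

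Mrpl50 had 10.83 and 10.86 at 0 h and 10.93 and 10.93 at 8 h in Mettl14 knockdown, against 10.68 and 10.63 at 0 h and 10.29 and 10.32 at 8 h in scramble cells. Its 8 h change passed only in scramble cells (-0.35; limma, adjusted p = 3.3e-05), and it differed by 0.44 ± 0.06 in Mettl14 knockdown (limma, adjusted p = 0.0027). Mrps7, a bacterial-type protein of the small subunit head, had 9.87 and 9.91 at 0 h and 10.31 and 10.33 at 8 h in Mettl14 knockdown, against 10.002 and 9.91 and then 9.80 and 9.84 in scramble cells, a difference of 0.57 ± 0.09 (limma, adjusted p = 0.0039). Mrps24, another small subunit protein, differed by 0.44 ± 0.09 (limma, adjusted p = 0.013), a call lost without replicate 2 of scramble or of Mettl14 knockdown at 0 h (0.0523 and 0.0569). Mrpl14, the relative of bacterial L14, differed by 0.41 (limma, adjusted p = 0.032), a call lost without any of 7 single arrays. Mrpl51, a large subunit protein, had 9.47 and 9.34 at 0 h and 9.84 and 9.74 at 8 h in Mettl3 knockdown, against 9.41 and 9.47 and then 9.38 and 9.33 in scramble cells. Its difference was 0.47 ± 0.09 in Mettl3 knockdown and 0.33 ± 0.09 in Mettl14 knockdown (limma, adjusted p = 0.012 and 0.048). The first was lost without any of 3 single arrays (limma, adjusted p = 0.05 to 0.0576) and the second without any of 15 (0.0535 to 0.149).

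**Figure D4:**
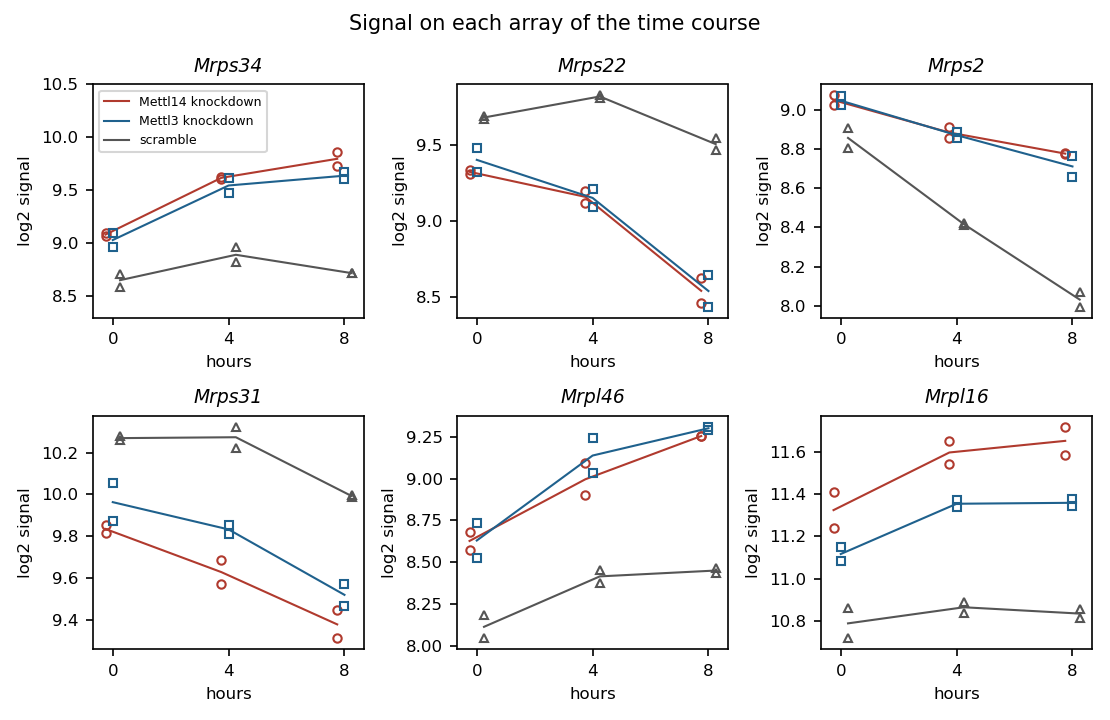
Log2 level on each array against hours for Mrps34, Mrps22, Mrps2, Mrps31, Mrpl46 and Mrpl16; red circles are Mettl14 knockdown, blue squares Mettl3 knockdown and grey triangles scramble cells, and lines join the group means of 2 arrays. At 8 h the knockdown arrays of Mrps34, Mrps2, Mrpl46 and Mrpl16 lie above the scramble arrays and those of Mrps22 and Mrps31 below them.

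Members with a known role at a functional site were also followed. Mrpl12, the stalk protein that also binds the mitochondrial RNA polymerase, had changes of 0.11 and 0.05 at 0 h that did not pass, and rose by 8 h by 0.45, 0.40 and 0.21 (limma, adjusted p = 0.00057, 0.0013 and 0.047). The scramble call was lost without any of 12 single arrays (limma, adjusted p = 0.0555 to 0.201). Mrpl58, a peptidyl-tRNA hydrolase that rescues stalled ribosomes, was lower at 0 h in the time course, with changes of -0.19 and -0.20 (limma, adjusted p = 0.011 and 0.0079), while its repeat-set changes of -0.03 and -0.03 did not pass. Each Mrpl58 time-course call was lost without either of 2 single arrays (limma, adjusted p = 0.0502 to 0.0853). By 8 h Mrpl58 rose by 0.37, 0.48 and 0.25. In scramble cells the equal median shift turned the 8 h changes of Mrpl12 and Mrpl58 to -0.20 and -0.16. Mrps16, which is mutated in a human mitochondrial disease, was lower with Mettl14 knockdown at 0 h (-0.37; limma, adjusted p = 0.016, lost without either of 2 single arrays at 0.0802 and 0.148) and rose by 8 h by 0.32, 0.37 and 0.53, where each knockdown call was lost without either of 2 single arrays (0.186 and 0.192, and 0.0605 and 0.053).

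Mrps12, the protein beside the decoding site, passed only for its 8 h rise in Mettl14 knockdown (0.36; limma, adjusted p = 0.002). Mrpl3, near the peptidyl transferase centre, passed only in Mettl3 knockdown of the repeat set (-0.12; limma, adjusted p = 0.049, lost without any of 8 single arrays at 0.0674 to 0.15) and in no time comparison. Mrps30 and Mrps18a, which lie in the large subunit despite their names, passed in none of these comparisons.

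**Figure D5:**
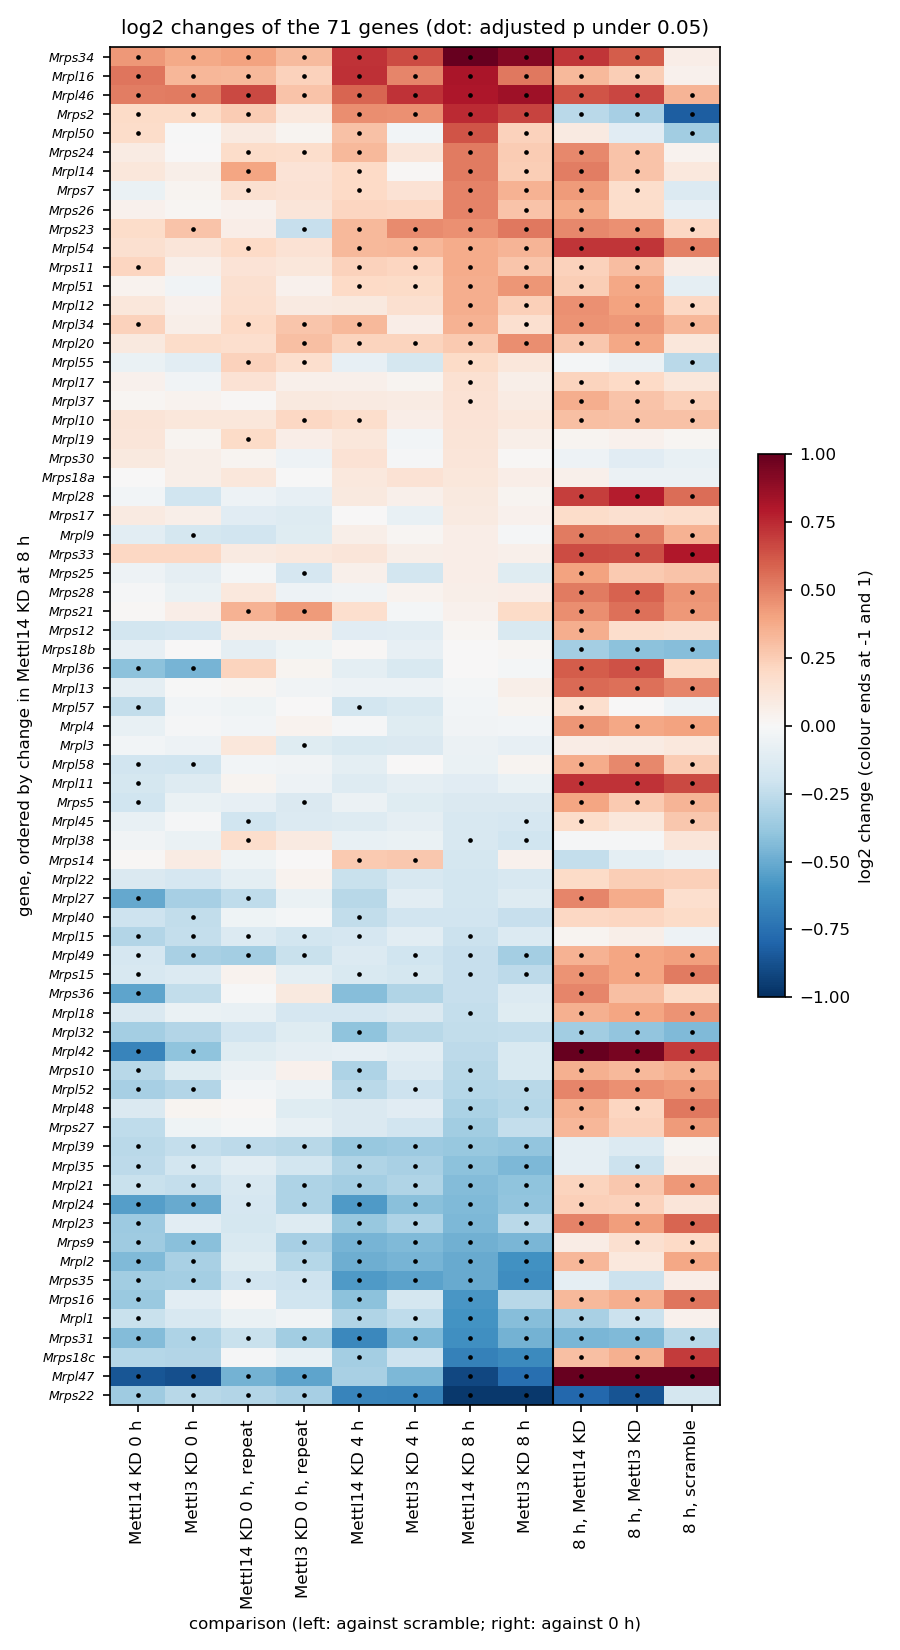
Log2 change of the 71 members (rows, ordered by the Mettl14 knockdown effect at 8 h) in 11 comparisons (columns), with the colour scale ending at -1 and 1 and a dot where the adjusted p was under 0.05. Mrps34 is at one end of the rows, 1.08 higher in Mettl14 knockdown at 8 h, and Mrps22 at the other, -0.96. The probe set that lists Mrps34 with Nme3 did not show a rise of this size.

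Other genes of mitochondrial translation were counted from lists chosen with earlier results known. Their counts at 0 h are to be read against 19.4% higher and 20.1% lower of all genes with Mettl14 knockdown and 19.3% and 18.6% with Mettl3 knockdown in the time course, and 19.4% and 16.9%, and 17.9% and 17.4%, in the repeat set. Of 3 mitochondrial ribosomal proteins with other names, Dap3, Ptcd3 and Gadd45gip1, all 3 fell in both knockdowns of the time course at 0 h, with a Dap3 change of -0.31 ± 0.05 in Mettl14 knockdown (limma, adjusted p = 0.000489). With Mettl14 knockdown in the repeat set the Dap3 change of -0.15 did not pass, Ptcd3 was lower (-0.22; limma, adjusted p = 0.0138) and Gadd45gip1 was higher by 0.13 (limma, adjusted p = 0.0467), and none of the 3 passed with Mettl3 knockdown there. At 8 h 3, 3 and 2 of the 3 rose in Mettl14 knockdown, Mettl3 knockdown and scramble cells, against 36.8%, 36.9% and 39.2% of all genes. Of 14 mitochondrial translation factors, 5 fell and 0 rose in each knockdown of the time course, and 3 rose and 3 or 4 fell in the repeat set. Mtrf1, a release factor relative, was lower in all 4 comparisons (-0.49, -0.53, -0.28 and -0.30), as was Mtif2, the initiation factor that places the first tRNA (-0.35, -0.35, -0.23 and -0.22).

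Of 24 assembly factors 2 rose and 8 fell in Mettl14 knockdown and 1 and 9 in Mettl3 knockdown. Mettl15, a methyltransferase of the small subunit RNA, changed by -0.54 with Mettl14 knockdown in the time course and by 0.18 in the repeat set (limma, adjusted p = 0.00048 and 0.0205). Of 19 mitochondrial aminoacyl-tRNA synthetases 1 rose and 9 fell in Mettl14 knockdown and 0 and 7 in Mettl3 knockdown, and in the repeat set 2 and 7, and 0 and 7. Cars2, for cysteine, fell in the time course and the repeat set with Mettl14 knockdown (-0.35 and -0.42), as did Rars2, for arginine (-0.37 and -0.38). Of 9 genes of mitochondrial transcription and DNA upkeep, 0 rose and 5 fell in Mettl14 knockdown and 0 and 4 in Mettl3 knockdown. Polrmt, the mitochondrial RNA polymerase, was lower in all 4 comparisons (-0.41, -0.42, -0.22 and -0.23), as was Ssbp1, which coats single-stranded mitochondrial DNA (-0.55, -0.48, -0.28 and -0.30).

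Of 9 regulators known to act on nuclear genes for mitochondria, 1 rose and 6 fell by 8 h in each treatment, against 36.8% and 19.4%, 36.9% and 19.2%, and 39.2% and 21.6% of all genes. Mycn, a growth regulator of the Myc family, changed by -1.49, -1.70 and -2.10 in Mettl14 knockdown, Mettl3 knockdown and scramble cells (limma, adjusted p = 6.5e-09, 2.47e-09 and 5.09e-10), and Myc by -1.93, -2.09 and -2.08. Nrf1, the factor whose word was searched for above, fell (-0.72, -0.68 and -0.79), as did Gabpb1, a subunit of the ETS factor GABP (-0.81, -0.65 and -0.71), while Gabpa, its DNA-binding subunit, rose by 0.28, 0.40 and 0.22. Yy1 passed in none of these 3 comparisons. No link between these genes and the members was tested.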

How the data were processed

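Per the submitters' processing notes, the authors normalized the arrays (Affymetrix Mouse Gene 2.0 ST) with RMA in oligo. The deposited table holds log2 signals for 41345 probe sets, of which 23521 list 1 gene symbol, 1814 several and 16010 were unlisted in the platform table used here. Each of 22180 genes took its brightest probe set, genes in the dimmest fraction of 0.333 (7393) were dropped, and the other 14787 were tested with limma 3.58.1 (lmFit, eBayes) in R 4.3.3. The time course was fitted on 18 arrays, the repeat set on 8, and differences between the sets on all 26. P-values were adjusted by Benjamini-Hochberg over all genes tested and called under 0.05. Every adjusted p in the text is limma's. Beyond the median level given for the members and all genes, levels were not compared between genes or sets. Whether all arrays were normalized together is not given in the sources used here. Named members were, in each comparison, the 5 largest rises and 5 largest falls among those called, and 10 chosen for their role, and of other lists up to 3 genes with the smallest adjusted p. Other genes singled out, such as Mrps33 and Mrps11 at 8 h, were named after their values were seen. The members and lists were chosen with earlier results of these data known. The analysis was tested on simulated data. Alternatives were other filters, mean of probe sets, quantile normalization, eBayes with trend, scaling to long-lived messages, a replicate block, 1 fit of all arrays, and each array left out in turn.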

Additional observations from a re-analysis of the deposited data

Results flagged for a closer look

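These results differed between groups under the same contrast, each by limma's test of the difference itself. The 8 h change differed between Mettl14 knockdown and scramble cells for 8 members. It was 0.65 log2 units higher for Mrps34, 0.57 for Mrps7, 0.55 for Mrps2, 0.44 for Mrps24 and 0.44 for Mrpl50, and the difference was -0.61 for Mrps22. Of these, Mrpl50, Mrps2, Mrps7, Mrps22 and Mrps34 passed whichever single array was left out, and Mrps24 did not. Between Mettl3 knockdown and the same scramble arrays 4 members differed, Mrps34 by 0.54, Mrps2 by 0.49, Mrpl51 by 0.47 and Mrps22 by -0.69, of which Mrps2 and Mrps22 passed whichever single array was left out. The probe set that lists Mrps34 with Nme3 did not show the differences of Mrps34.

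The Mettl14 knockdown effect at 0 h differed between the time course and the repeat set for 7 members, by -0.63 for Mrpl36, -0.54 for Mrpl42, -0.38 for Mrpl24, -0.32 for Mrpl2 and -0.31 for Mrpl52. Mrpl24, Mrpl36 and Mrpl52 passed whichever single array was left out. The Mettl3 knockdown effect differed for 3 members, by 0.52 for Mrps23, -0.49 for Mrpl36 and -0.24 for Mrpl52, of which Mrps23 passed whichever single array was left out. Shifting arrays to an equal median of long-lived messages leaves little of the Mrps23 difference. The sets also differ in their own scramble arrays, and set and scramble group cannot be told apart from each other.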

How the results depend on the processing

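Counts of members called kept within 1.5 times of the reported value under every alternative not named here. Shifting arrays to an equal median of long-lived messages, which rests on the level of 1 middle gene and took the median of all genes to as low as -0.39 in a knockdown comparison and -0.51 between sets, gave 65 and 61 members called for Mettl14 and Mettl3 knockdown at 0 h, 63 for Mettl3 knockdown at 4 h, 22, 21 and 9 for the 4 h changes, 36 for the 8 h change in Mettl14 knockdown, 34 and 11 for the difference in 8 h change, and 69 and 67 for the difference between sets. The median deviation of the same messages, chosen after seeing the data, gave 24, 24 and 11 for the 4 h changes, splits of 24 higher and 16 lower, 15 and 18, and 18 and 18 at 8 h, and 3 and 1 between sets. Without a filter on dim genes the repeat set had 13 and 14 members and the Mettl14 set difference 4. Leaving out the dimmer fraction of 0.5 gave 9 for the Mettl3 8 h difference and 5 for the Mettl3 set difference, eBayes with trend gave 8 and 5, 1 fit of all arrays 8 for the first, and quantile normalization 4 for the Mettl14 set difference. Without the 2 arrays described as 4 h, a choice made after seeing the data, the repeat set had 7 and 7 and the Mettl14 set difference 3. Under the first scaling signs turned at 0 h for Mettl14 knockdown in Mrpl34 (-0.15), Mrps11 (-0.17), Mrpl12 (-0.27), Mrps30 (-0.29) and Mrps18a (-0.38), and for Mettl3 knockdown in Mrpl16 (-0.0016), Mrps23 (-0.046), Mrps2 (-0.14), Mrpl12 (-0.28), Mrps30 (-0.27) and Mrps18a (-0.27). They turned in the Mettl3 repeat set in Mrpl3 (0.043) and Mrps18a (0.16), at 4 h with Mettl14 knockdown in Mrps18a (-0.18) and with Mettl3 knockdown in Mrpl12 (-0.21), Mrpl58 (-0.37) and Mrps18a (-0.23). They turned for the Mettl3 4 h change in Mrpl3 (-0.23), Mrps30 (-0.23) and Mrps18a (-0.25), and for the scramble 8 h change in Mrpl12 (-0.20), Mrpl3 (-0.30), Mrpl58 (-0.16) and Mrps12 (-0.25). Between sets they turned in Mrps30 (-0.43) for Mettl14 and in Mrpl3 (-0.42), Mrps16 (-0.40), Mrps22 (-0.44), Mrps30 (-0.39) and Mrps18a (-0.43) for Mettl3. Under the median deviation they turned for 8 h in Mrps18a (-0.18, Mettl14 knockdown) and Mrpl12 (-0.013, scramble). The cause was not tested. Leaving out 1 array gave 17 to 36 and 14 to 25 for the knockdowns at 0 h (lowest without Mettl14 knockdown replicate 2 and scramble replicate 1), 10 to 21 and 11 to 21 in the repeat set (without replicate 2 of either scramble), 23 to 37 and 18 to 25 at 4 h (without Mettl14 knockdown replicate 1 at 4 h), 35 to 44 and 28 to 38 at 8 h, 35 to 47, 31 to 45 and 26 to 41 for the 4 h changes (the last without scramble replicate 1 at 4 h), 46 to 55, 41 to 50 and 35 to 42 for the 8 h changes, 5 to 10 and 2 to 5 for the 8 h differences (without scramble 0 h replicate 2 and 8 h replicate 2), and 3 to 9 and 1 to 4 between sets (without scramble 0 h replicate 2 and replicate 1). No sign turned when 1 array was left out. With the replicate number as a block the counts were 34 and 23 at 0 h and 19 and 23 in the repeat set, and it moved no count by over 1.5 times. Same-numbered arrays deviated together at r = -0.44 to 0.34 (median 0.03) in the time course and -0.05 to 0.04 in the repeat set. The cut set for this check was exceeded in 12 of 36 pairs of time-course groups and in 0 of 6 in the repeat set. The values took both signs, and the numbers were not taken to pair the samples.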

Other observations

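Members that lie only on a probe set with a second gene were not tested, and their values cannot be assigned to 1 of the 2 genes. The probe set of Mrpl43 and Twnk, the mitochondrial DNA helicase, read 10.83 in Mettl14 knockdown, 10.79 in Mettl3 knockdown and 10.02 in scramble cells of the time course at 0 h. Its differences were 0.81 and 0.77, and 0.72 and 0.71 in the repeat set, while the probe set of Twnk alone differed by -0.32 and 0.01 with Mettl14 knockdown in the 2 sets. The probe set of Mrps6 and Slc5a3 was higher by 0.34 and 0.55 in the time course and by 0.53 and 0.52 in the repeat set. Mrpl53 and Ccdc142 lie together on 2 probe sets. The brighter was higher by 0.23, 0.18, 0.29 and 0.29 in the 4 comparisons at 0 h, and changed by 0.50, 0.54 and 0.47 by 8 h in Mettl14 knockdown, Mettl3 knockdown and scramble cells. The dimmer differed by -0.17, -0.08, -0.07 and 0.08 at 0 h, and changed by -0.11, -0.03 and -0.28 by 8 h. The probe set of Mrpl41 and Dph7 differed by -0.04, -0.15, 0.07 and -0.19 at 0 h and changed by 0.34, 0.49 and 0.30 by 8 h. That of Mrpl44 and Wdfy1 differed by 0.03, 0.24, 0.13 and 0.02 at 0 h. That of Mrpl33 and Babam2 was lower in all 4 comparisons at 0 h, by log2 differences of -0.28, -0.38, -0.20 and -0.21, and changed by 0.12, 0.10 and 0.11 by 8 h, while that of Mrpl33 and Gm38424 differed by -0.02, 0.14, -0.0005 and -0.03 at 0 h. That of Mrpl30 and Gm6238 differed by 0.22, -0.17, -0.06 and -0.06 at 0 h.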
